A study of Mus musculus with 19 samples.

Results

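Chromatin accessibility was described around 9 mouse genes that encode transcription factors of forebrain patterning: Emx1, Emx2, Lhx2, Pax6, Dlx1, Dlx2, Gsx2, Six3 and Otx1. Their peaks were those with a centre in the gene body or within 30 kb of either end of the gene in the RefSeq annotation of GRCm38 (mm10). This rule, which uses position and no measured value, gave 45 of the 90154 peaks of the series. The 9 genes form 8 loci, since Dlx1 and Dlx2 are neighbours and share 3 peaks.

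ATAC-seq measures accessibility by the reads that a transposase leaves in open chromatin. The libraries came from neural stem and progenitor cells of the ventricular zone of wild type C57BL/6J embryos at embryonic day 14, each culture started from a single brain, with no forebrain region given. The cells were expanded with EGF as floating neurospheres (NSPs, 3 libraries) or plated on poly-L-ornithine in medium with serum, in which they differentiate towards astrocytes, for 24 h (3 libraries), 72 h (3) or 1 week (4). Other plated cells received the inflammatory cytokine tumor necrosis factor (TNF, 50 ng/ml) for 24 h (3) or 72 h (3). The paper's methods name no engineered allele for these cultures. Unless otherwise indicated, the paper describes its data as from at least 3 independent biological experiments. It does not say for these libraries in particular whether replicates came from separate cultures, so p-values measure only the spread between these libraries.

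In the embryonic forebrain, neural progenitors acquire positional identity through combinations of homeodomain transcription factors. Emx1, Emx2, Lhx2 and Pax6 are used by progenitors of the dorsal telencephalon (pallium), where the cerebral cortex forms, and Gsx2, Dlx1 and Dlx2 by those of the ventral telencephalon (subpallium), the source of GABAergic interneurons. Six3 and Otx1 act in the rostral brain, Six3 in the most anterior neural plate and the eye field and Otx1 in the forebrain, the midbrain and later in deep-layer cortical neurons.

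Upstream windows (the 250 bases before a listed start) were found in the RefSeq table for 8 of the 9 genes, all but Otx1. Those shown here overlap the peaks at 4 starts, 3 of which belong to peaks that lost accessibility after plating and 1, of Dlx2, to a peak that passed no test. Sequences are in GRCm38.p6 and are written 5′ to 3′ on the strand of the gene. Capitals mark matches on either strand to the GC box GGGCGG, which overlap in places, and to the CCAAT box CCAAT.
Emx1, chr6:85187681-85187930, plus strand: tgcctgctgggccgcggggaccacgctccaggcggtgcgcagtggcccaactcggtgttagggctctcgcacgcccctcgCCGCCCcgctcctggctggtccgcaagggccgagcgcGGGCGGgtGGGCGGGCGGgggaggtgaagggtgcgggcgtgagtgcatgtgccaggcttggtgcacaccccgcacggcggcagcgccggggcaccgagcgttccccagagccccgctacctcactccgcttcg
Emx2, chr19:59458440-59458689, plus strand: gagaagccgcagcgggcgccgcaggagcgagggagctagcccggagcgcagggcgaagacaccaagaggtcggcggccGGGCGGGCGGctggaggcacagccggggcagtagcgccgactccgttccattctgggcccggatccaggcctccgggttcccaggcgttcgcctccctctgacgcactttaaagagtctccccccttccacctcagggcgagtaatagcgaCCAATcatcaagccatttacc
Lhx2, second listed start, chr2:38351058-38351307, plus strand: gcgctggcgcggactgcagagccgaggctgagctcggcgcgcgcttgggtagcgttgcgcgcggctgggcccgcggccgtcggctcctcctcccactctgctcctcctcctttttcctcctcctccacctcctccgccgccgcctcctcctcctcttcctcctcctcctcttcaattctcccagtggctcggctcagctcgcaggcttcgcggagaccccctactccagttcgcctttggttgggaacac
Dlx2, chr2:71546755-71547004, minus strand: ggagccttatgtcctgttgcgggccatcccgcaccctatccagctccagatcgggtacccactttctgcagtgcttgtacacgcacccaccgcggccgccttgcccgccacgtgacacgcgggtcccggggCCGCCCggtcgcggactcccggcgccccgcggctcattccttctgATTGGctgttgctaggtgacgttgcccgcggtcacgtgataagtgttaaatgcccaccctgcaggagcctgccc

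The Emx1 window held 4 GC boxes, that of Emx2 held 2 GC boxes and 1 CCAAT box, that of Dlx2 held 1 of each, and that of the second Lhx2 start held none. The window of the first Lhx2 start, not printed, overlaps the peak there and held 4 GC boxes. Across all 32851 upstream windows of that length in the table, 32.7% held a GC box and 33.8% a CCAAT box. The homeodomain core TAATTA was in 4.84% and the AP-1 motif TGANTCA in 6.75% of all windows. Neither was in any of the windows of the 8 member genes. The TATA box TATAAA was in 12.4% of all windows and, among the members, in that of Gsx2. A match is a description of letters and says nothing of binding.

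The deposited value of a peak is its reads divided by a scale factor of the library and is called normalised reads here. Reads in peaks ranged from 9640256 to 39349111 per library, with NSPs the deepest group, and each of the 45 peaks passed the filter on low values. A member peak held as few as 3 reads in a library, and 5 of them held under 10 reads in some library. Values of NSPs replicate 1 stood apart, with Spearman correlations across all peaks of 0.913 to 0.982 among the NSP libraries and 0.940 or more within each other group. The names of the 72 h, 72 h TNF and 1 week libraries (10) carry a tag, Luc, that the other 9 lack, so that the tag and the time cannot be told apart where 72 h or 1 week is set against NSPs. Of 212 peaks that were near 0 in the tagged libraries and read in the others, none was a member.

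Among the marker lists, read through peaks within 1 kb of a gene end (gene-end peaks), all 5 progenitor genes (Sox2, Nes, Hes5, Fabp7, Vim) had a peak, and their summed level ran from 5284 to 5978 in NSPs, 2893 to 3511 at 24 h, 2285 to 2794 at 72 h and 3359 to 3411 at 1 week. By limma-trend 5 fell at 24 h, 5 at 72 h and 2 at 1 week, against 39.3%, 53.7% and 27.6% of all gene-end peaks. At 1 week Hes5 (1976 ± 208 in NSPs, 93.0 ± 20.0 at 1 week) and Fabp7 (769 ± 48.0 and 450 ± 33.0) were lower. Sox2, Nes and Vim were not called then (log2 fold changes 0.03, 0.14 and 0.01). Of 7 astrocyte genes 6 had a peak, with sums of 1353 to 1507 in NSPs, 1404 to 1658 at 24 h, 1560 to 1671 at 72 h and 1161 to 1308 at 1 week. At 24 h 1 of these 6 rose and 3 fell by limma-trend, against 6.27% and 39.3% of all gene-end peaks. The peak at Gfap, the intermediate filament of astrocytes, rose from 107.6 ± 68.1 normalised reads (SD, n = 3) in NSPs to 489 ± 29.4 at 24 h (adjusted p = 6.4e-10), while those at S100b (-0.58), Slc1a2 (-0.41) and Slc1a3 (-0.41 on the log2 scale) fell, and Aqp4 had no peak. Fewer of the other lists' genes had a peak: 3 of 5 neuronal, 2 of 5 oligodendrocyte, 1 of 5 microglial or blood, 1 of 4 mesenchymal and 1 of 3 endothelial genes. Olig2, of the oligodendrocyte list, averaged 1471 ± 177 in NSPs and 665.1 ± 23.9 at 24 h (adjusted p = 2.5e-09). In bulk samples, fewer cells of a type and less accessible chromatin per cell cannot be told apart, and the part of cell composition in the results below was not tested.

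The first question was how these loci changed as NSPs began to differentiate. A peak was called where its adjusted p (limma-trend, Benjamini-Hochberg over all 88919 peaks tested) was under 0.05, and fold changes are on the log2(value + 1) scale. At 24 h, 10 of the 45 peaks had risen (24.2% of all peaks did) and 14 had fallen (23.0% of all). At 72 h, 13 had risen (28.3% of all) and 19 had fallen (30.9%). At 1 week, 11 had risen (33.7% of all) and 19 had fallen (33.6%). With the deposited scaling the shares of member peaks that fell were 31.1%, 42.2% and 42.2%, above the background in each case. Those that rose were 22.2%, 28.9% and 24.4%. The excess of falls was not tested. The numbers of falls, among members and among all peaks, depended on the scaling, as given below.

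In order of time, the 45 peaks had median log2 fold changes against NSPs of -0.17, -0.29 and -0.27, and all peaks had medians of -0.07, -0.06 and 0.01. In all, 37 peaks were called in at least 1 of the 3 comparisons (81.6% of all peaks were). Of these, 11 were lower in all 3 (14.2% of all) and 8 were higher in all 3 (18.7% of all). None was higher in 1 and lower in another, which held for 2.8% of all peaks, and the 3 comparisons share the NSP libraries. NSPs were the group with the highest mean for 21 peaks and with the lowest for 10.

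Under scaling by total reads the median over all peaks became 0.11 at 24 h and 0.21 at 72 h. Member calls changed to 12 higher and 9 lower for 24 h and to 15 and 10 for 72 h. The 1 week libraries gave 8 higher and 21 lower member peaks under this scaling, with a median of -0.06 over all peaks. Among all 88919 peaks, 26112 rose and 12367 fell by 24 h, 32636 and 18509 by 72 h, 27683 and 31934 by 1 week. Falls over all peaks had numbered 20490, 27509 and 29870 with the deposited scaling, so they moved in the same direction as those of members. Without NSPs replicate 1 the calls were 8 higher and 12 lower at 24 h, 12 and 16 at 72 h, and 11 and 18 at 1 week. The number of higher calls dropped when single libraries were left out: at 24 h it was 6 without NSPs replicate 3 and 6 without 24 h replicate 2, at 72 h it was 7 without NSPs replicate 2 and 8 without 72 h replicate 1, and at 1 week it was 6 without NSPs replicate 2 and 7 without NSPs replicate 3. Higher calls over all peaks dropped too in these fits, in the same order to 19484 and 20337 from 21492, to 23570 and 23028 from 25196, and to 27893 and 27625 from 29967. Power lost with a library and dependence on that library were not separated.

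**Figure D1:**
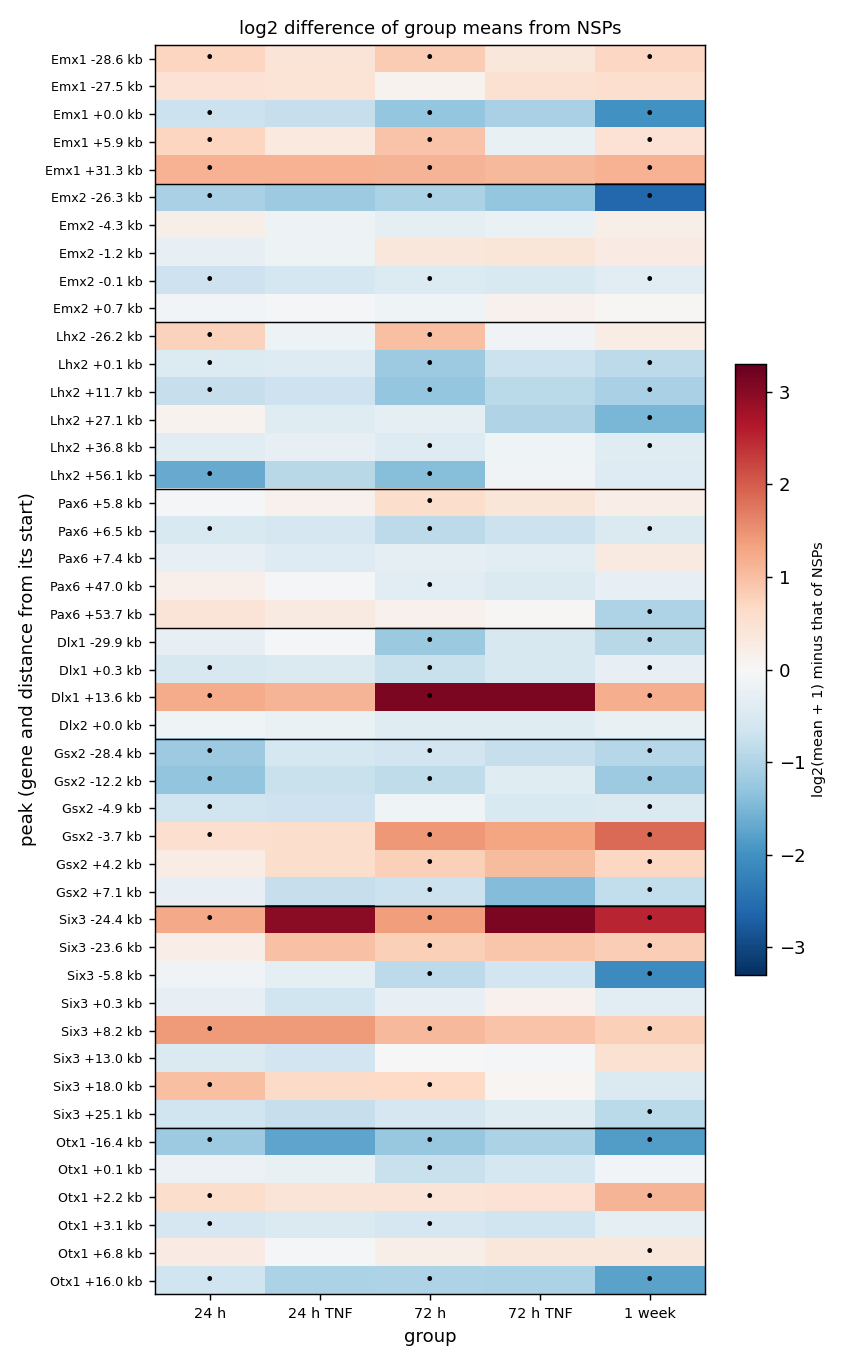
Log2 difference of each group's mean normalised reads from the mean of the 3 NSP libraries (colour, red higher and blue lower) for the 45 peaks (vertical axis, in order within each locus) in the 5 later groups (horizontal axis), with a dot where limma-trend called the untreated group. Peaks lower in all 3 untreated groups (11) and peaks higher in all 3 (8) both occurred at Emx1, Dlx1/Dlx2, Gsx2 and Otx1.

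The calls were next counted by position within the locus. Otx1 has no listed start in the reference, and the peak within 1 kb of its end of higher coordinate was counted with the start peaks, without its being known to mark a start. Of the 45 peaks, 9 were start peaks in this sense (8 within 1 kb of a listed start and that of Otx1), 6 lay elsewhere in a gene body and 30 in the flanks, 6 of these within another protein-coding gene. No start peak rose against NSPs at any time, whereas 5 of the 9 had fallen at 24 h, 6 at 72 h and 5 at 1 week. Among all 13342 tested peaks centred within 1 kb of either end of protein-coding genes, 39.3% fell at 24 h, 53.7% at 72 h and 27.6% at 1 week, and 6.27%, 9.62% and 26.5% rose. Rises were thus few among gene-end peaks in general at 24 h and 72 h. The start peaks do not match this background exactly. Those at Dlx1, Six3 and the second Lhx2 start lie over 1 kb from the ends of protein-coding genes. The peak 13.6 kb downstream of the Dlx1 start, counted below among the 36, lies within 1 kb of an end of Dlx2. Of the 36 other member peaks, 10 had risen and 9 had fallen at 24 h, 13 and 13 at 72 h, and 11 and 14 at 1 week. Among all 75577 tested peaks away from gene ends, 27.3% rose and 20.2% fell at 24 h, 31.6% and 26.9% at 72 h, and 35.0% and 34.6% at 1 week. The shares among the 36 were 27.8% and 25%, 36.1% and 36.1%, and 30.6% and 38.9%. Under total read scaling 3, 5 and 5 start peaks fell and under cyclic loess scaling 5, 5 and 6, and none rose under either. No peak lay within 1 kb of a listed start of Pax6 or Gsx2.

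**Figure D2:**
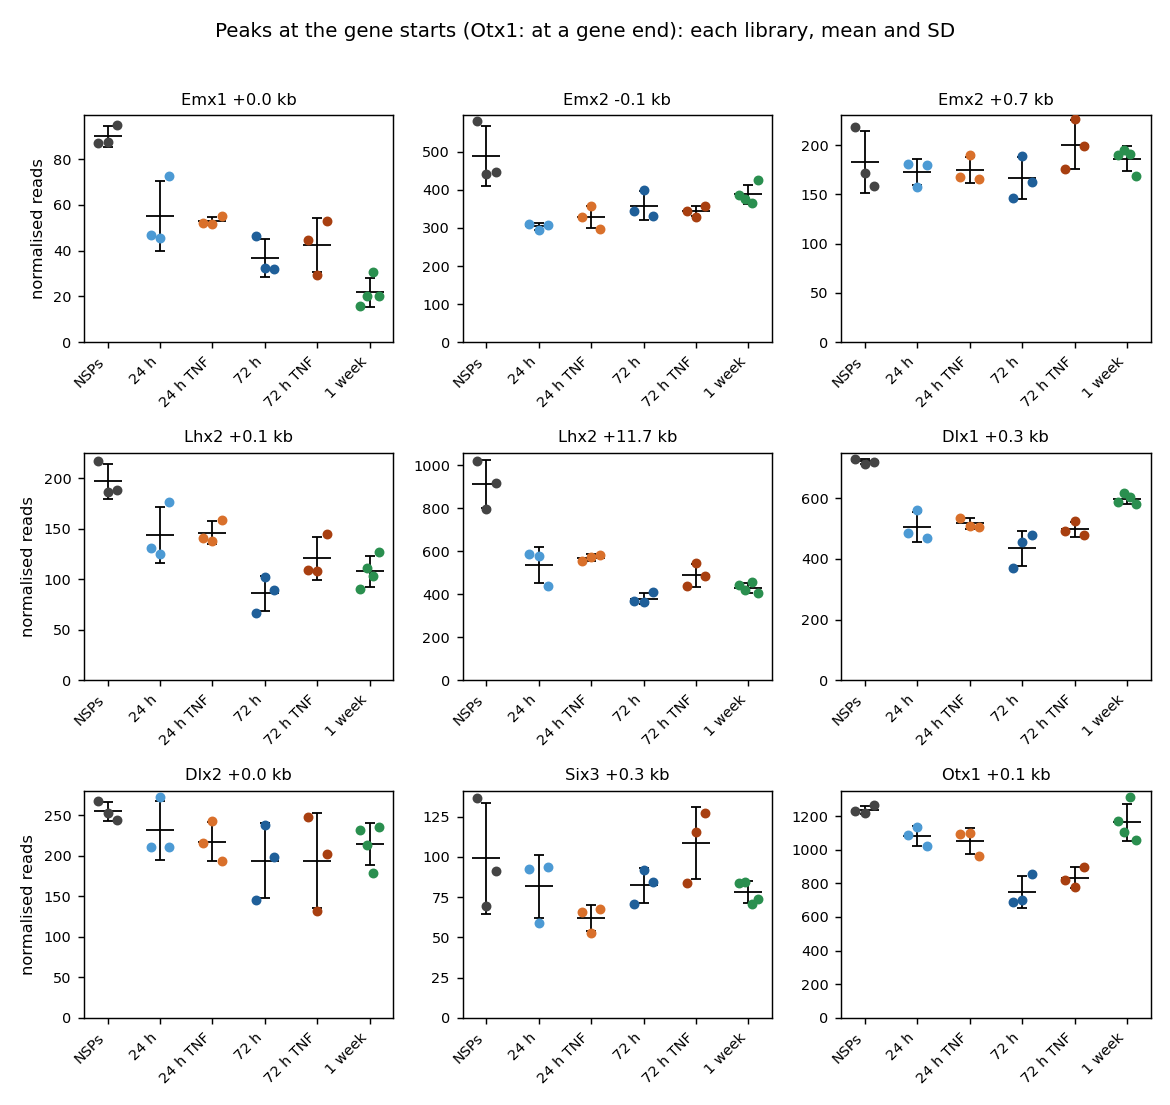
Normalised reads (vertical axis, from 0) of the 9 start peaks (for Otx1, the peak at its end of higher coordinate) in the 6 groups (horizontal axis), with a point per library, a bar at the mean and whiskers of 1 SD (n = 3, and 4 at 1 week). The NSP points lie above those of every later group at Emx1, Emx2 (0.1 kb upstream), both Lhx2 starts and Dlx1, and overlap them at Emx2 (0.7 kb downstream) and Six3.

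Emx1, a homeodomain factor of dorsal telencephalic progenitors, lost accessibility at its start while 3 of its 4 other peaks gained it. Its 5 peaks summed to 329 ± 14.8 normalised reads in NSPs, 499 ± 33.7 at 24 h, 458 ± 59.2 for 24 h TNF, 486 ± 25 at 72 h, 409.8 ± 24.7 for 72 h TNF and 453 ± 27.4 at 1 week (mean ± SD). The sums of all later libraries lay above those of the 3 NSP libraries, and neighbours in the order of the later means overlapped.

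The start peak of Emx1 (chr6:85187685-85188185) read 87, 87.6 and 95 in the NSP libraries, 46.7, 45.7 and 72.7 at 24 h, 46.3, 32.3 and 31.9 at 72 h and 15.9, 20.3, 30.8 and 20.4 at 1 week. Every later library was below every NSP library, and the 1 week libraries were below those of 72 h. The loss was called at 24 h (log2 fold change -0.73, SE 0.29, adjusted p = 0.038), at 72 h (log2 fold change -1.28, SE 0.29, adjusted p = 0.00037) and at 1 week (log2 fold change -2.03, SE 0.27, adjusted p = 1.4e-07). It fell again between 72 h and 1 week (log2 fold change -0.75, SE 0.27, adjusted p = 0.029). The call at 24 h was lost when any NSP library or 24 h replicate 1 or 2 was left out, and that between 72 h and 1 week without 72 h replicate 1 or 1 week replicate 1, 2 or 4.

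The peak 31.3 kb downstream of the Emx1 start (chr6:85219002-85219502), inside the neighbouring gene Sfxn5, read 69.5, 123 and 107 in NSPs, 229, 224.2 and 219 at 24 h, 205, 181 and 271 at 72 h and 214, 258, 211 and 211 at 1 week. All later libraries lay above the NSP libraries, and the later groups overlapped. It rose at 24 h (log2 fold change 1.20, SE 0.19, adjusted p = 8.1e-06), with about the same difference at 72 h (1.14) and 1 week (1.19). The peak within the gene 5.9 kb downstream of the start averaged 62.7 ± 43.1 in NSPs, 103 ± 25 at 24 h and 122 ± 6.93 at 72 h, but NSPs replicate 1 (112) stood far above the other NSP libraries (46.6 and 29.9). It was called higher at 72 h (log2 fold change 1.16, SE 0.29, adjusted p = 0.0012). Its call at 24 h was lost without NSPs replicate 2 or 3 or 24 h replicate 2, and that at 1 week without NSPs replicate 2 or 3 or 1 week replicate 3. The peak 28.6 kb upstream rose in all 3 comparisons (0.71, 0.75 and 0.66 on the log2 scale), and that 27.5 kb upstream passed none.

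Emx2, the paralogue of Emx1, which sets the caudomedial identity of the cortex, had 5 peaks and no call in the higher direction. Their sum averaged 953 ± 101 in NSPs, 722 ± 15.3 at 24 h, 722 ± 58.8 for 24 h TNF, 784 ± 73.8 at 72 h, 806 ± 12.4 for 72 h TNF and 840.2 ± 43.4 at 1 week. All NSP libraries lay above all others, and the order from 24 h to 1 week had neighbours that overlapped.

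Its highest peak, over the start (chr19:59458369-59458869), read 581, 442 and 447 in NSPs, 309.7, 294 and 308 at 24 h, 345, 401 and 330.1 at 72 h and 385, 376, 365 and 425 at 1 week. The NSP libraries were the highest, and 24 h the lowest of the untreated groups. Calls in the lower direction followed at 24 h (log2 fold change -0.68, SE 0.12, adjusted p = 5.3e-05), 72 h (log2 fold change -0.44, SE 0.12, adjusted p = 0.0032) and 1 week (log2 fold change -0.33, SE 0.12, adjusted p = 0.015). Without NSPs replicate 1 the call at 1 week was lost (-0.20). A second start peak, 0.7 kb downstream, averaged 183 ± 31.7 in NSPs and 173 ± 13.1 at 24 h and passed no test.

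The distal peak of Emx2 with the steepest change lay 26.3 kb upstream (chr19:59432182-59432682), within the antisense gene Emx2os. It read 54.3, 68.3 and 68.4 in NSPs, 34.2, 25.1 and 29.6 at 24 h, 28.3, 28.7 and 34.4 at 72 h and 6.17, 12.5, 6.60 and 13.9 at 1 week. NSPs were highest, 24 h and 72 h overlapped, and 1 week was the lowest, with as few as 3 reads in a library. It fell at 24 h (log2 fold change -1.08, SE 0.36, adjusted p = 0.015), at 1 week (log2 fold change -2.65, SE 0.34, adjusted p = 6.8e-08) and between 72 h and 1 week (log2 fold change -1.62, SE 0.34, adjusted p = 0.00045). The calls at 24 h and 72 h were lost without NSPs replicate 2 or 3, and that at 24 h also without 24 h replicate 2. The peaks 4.3 kb and 1.2 kb upstream, at group means of 88.5 to 141, passed no test.

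Lhx2, a LIM homeodomain factor that selects cortical identity in the pallium and is needed for eye development, showed the largest loss in its sum of the 8 loci. The 6 peaks summed to 1521 ± 152 in NSPs, 1009 ± 91.1 at 24 h, 1013 ± 15 for 24 h TNF, 787 ± 54.6 at 72 h, 943 ± 87.5 for 72 h TNF and 825 ± 23.2 at 1 week. The means at 24 h, 72 h and 1 week were 0.663, 0.517 and 0.542 of that of NSPs. All NSP libraries lay above all others, while 72 h overlapped 1 week.

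The highest peak of Lhx2 lay at its second listed start, 11.7 kb downstream of the first (chr2:38350764-38351264). It read 1021, 799 and 917 in NSPs, 585, 579.7 and 437 at 24 h, 368, 361 and 408 at 72 h and 444, 418, 456 and 403 at 1 week. The NSP libraries were well above all later ones, and those at 72 h were below those at 24 h. It fell at 24 h (log2 fold change -0.78, SE 0.12, adjusted p = 7.0e-06), 72 h (log2 fold change -1.26, SE 0.12, adjusted p = 8.3e-10) and 1 week (log2 fold change -1.08, SE 0.12, adjusted p = 2.5e-09), and these 3 calls were kept under every setting tried. The peak at the first start averaged 197 ± 17.5 in NSPs, 144 ± 27.8 at 24 h, 85.9 ± 17.6 at 72 h and 108 ± 15.3 at 1 week. It fell at 72 h (log2 fold change -1.21, SE 0.19, adjusted p = 2.9e-06) and at 1 week (log2 fold change -0.87, SE 0.18, adjusted p = 7.4e-05), while its call at 24 h (-0.46) was lost without any 1 of NSPs replicates 1, 2 or 3 or 24 h replicates 1 or 2.

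The distal peaks of Lhx2 went in different directions. The peak 56.1 kb downstream of the first start (chr2:38395132-38395632), beyond the 3′ end of the gene, read 112, 137 and 154 in NSPs, 33, 38.4 and 54.2 at 24 h, 48.9, 62.2 and 39.5 at 72 h and 90.8, 111, 112 and 80.4 at 1 week. It was low at 24 h and 72 h and back near the NSP libraries at 1 week, when the groups overlapped. This peak fell at 24 h (log2 fold change -1.67, SE 0.23, adjusted p = 5.7e-07) and rose between 72 h and 1 week (log2 fold change 0.97, SE 0.21, adjusted p = 0.00069).

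The peak 26.2 kb upstream (chr2:38312825-38313325) read 64.8, 41.5 and 31.9 in NSPs, 80.8, 88.5 and 65.3 at 24 h, 84.9, 90.9 and 103 at 72 h and 51.1, 49.1, 50.6 and 69.7 at 1 week. It was highest at 72 h, and 1 week overlapped NSPs. It rose at 72 h (log2 fold change 1.05, SE 0.27, adjusted p = 0.0015) and fell from there to 1 week (log2 fold change -0.75, SE 0.25, adjusted p = 0.02). Its rise at 24 h (0.80, adjusted p = 0.017) was lost without NSPs replicate 3 or 24 h replicate 2, and its fall from 72 h without 72 h replicate 3. The peak within the gene 27.1 kb downstream fell late, from 84.1 ± 17.3 at 72 h to 35.6 ± 5.04 at 1 week (log2 fold change -1.21, SE 0.26, adjusted p = 0.00062). The peak 36.8 kb downstream fell at 72 h (-0.43, adjusted p = 0.039) and 1 week (-0.39, adjusted p = 0.042), both lost without any 1 of the NSP libraries.

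Pax6, a paired-box and homeodomain factor of dorsal telencephalic progenitors and of the eye, held its accessibility in a group of gene body peaks rather than at its listed starts. Its 5 peaks summed to 1852 ± 109.8 in NSPs, 1521 ± 153 at 24 h, 1429 ± 66.6 for 24 h TNF, 1267 ± 92.7 at 72 h, 1299.7 ± 55.1 for 72 h TNF and 1536 ± 115 at 1 week. The NSP libraries lay above all others, and 72 h was the lowest mean, overlapping 72 h with TNF.

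The peak 6.5 kb downstream of the first start (chr2:105675167-105675667) held 55.0% of the locus. It read 1224, 1104 and 1115 in NSPs, 879, 859 and 708 at 24 h, 555, 702 and 626 at 72 h and 792, 798, 838 and 889 at 1 week. NSPs were highest, 72 h lowest, and 24 h overlapped 1 week. It fell at 24 h (log2 fold change -0.50, SE 0.11, adjusted p = 0.00055), 72 h (log2 fold change -0.87, SE 0.11, adjusted p = 1.2e-07) and 1 week (log2 fold change -0.47, SE 0.10, adjusted p = 0.00026). The rise from 72 h to 1 week (log2 fold change 0.41, SE 0.10, adjusted p = 0.003) was 0.06 under total read scaling and -0.09 under cyclic loess scaling, where it was no longer called.

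Neither gene body peak beside it was called lower against NSPs at any time. The peak 5.8 kb downstream rose at 72 h (log2 fold change 0.57, SE 0.19, adjusted p = 0.011). The peak 7.4 kb downstream was lower without a call at 24 h (-0.29) and 72 h (-0.31). Like the 6.5 kb peak, it rose between 72 h and 1 week, from 217 ± 11.9 to 329 ± 33.2 (log2 fold change 0.60, SE 0.14, adjusted p = 0.00099). Over this interval 5 of the 36 peaks other than start peaks were called higher with the deposited scaling. Under total read scaling 2 were, and under cyclic loess scaling 4. Whether the 7.4 kb peak was among those is not given here. Beyond the 3′ end, inside the convergent gene Elp4, the peak 47.0 kb from the start fell at 72 h (log2 fold change -0.36, SE 0.13, adjusted p = 0.022). The peak 53.7 kb from the start (chr2:105722354-105722854) read 39.7, 51.3 and 45.8 in NSPs, 50.2, 39.5 and 62.5 at 72 h and 25.6, 7.01, 28.6 and 26.8 at 1 week. The 1 week libraries lay below both other groups, and it fell against NSPs (log2 fold change -1.18, SE 0.34, adjusted p = 0.0034) and against 72 h (log2 fold change -1.31, SE 0.34, adjusted p = 0.0034).

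Dlx1 and Dlx2, neighbouring genes transcribed towards each other that encode homeodomain factors of GABAergic precursors, had 4 peaks between them. The sum averaged 1103 ± 25.5 in NSPs, 863 ± 90.5 at 24 h, 877 ± 38.5 for 24 h TNF, 808 ± 92.5 at 72 h, 899.8 ± 27.2 for 72 h TNF and 906 ± 26.1 at 1 week. The NSP libraries lay above all others, and neighbours in the order of the other means overlapped.

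The Dlx1 start peak (chr2:71529454-71529954) read 731, 714 and 722 in NSPs, 485, 561 and 468 at 24 h, 371, 457 and 481 at 72 h and 588, 617, 605 and 583 at 1 week. NSPs were highest, followed by 1 week, and 24 h overlapped 72 h. The peak fell at 24 h (log2 fold change -0.52, SE 0.11, adjusted p = 0.00029) and 72 h (log2 fold change -0.74, SE 0.11, adjusted p = 1.6e-06). It stayed lower at 1 week (-0.27, adjusted p = 0.022), a call lost without NSPs replicate 3. Its rise from 72 h to 1 week (log2 fold change 0.46, SE 0.10, adjusted p = 0.0008) was 0.12 under total read scaling and 0.06 under cyclic loess scaling, neither called. The Dlx2 start peak (chr2:71546503-71547003) averaged 255 ± 11.9 in NSPs, 231 ± 36 at 24 h, 194 ± 46.5 at 72 h and 215 ± 26.3 at 1 week, and passed no test, the lowest adjusted p being 0.058 at 72 h.

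The member peak with the largest rise lay between the 2 genes, 13.6 kb downstream of the Dlx1 start and just beyond the 3′ end of Dlx2 (chr2:71542837-71543337). It read 19.9, 6.12 and 16.6 in NSPs, 38.7, 39.8 and 25.9 at 24 h, 22.1, 39.9 and 34.3 for 24 h TNF, 135, 109 and 148 at 72 h, 122, 135 and 131 for 72 h TNF and 22, 27.3, 41.8 and 44 at 1 week. The 6 libraries of 72 h, with and without TNF, all read over 100, and no library of the other groups read over 45. It rose at 24 h (log2 fold change 1.35, SE 0.34, adjusted p = 0.0018) and at 72 h (log2 fold change 3.24, SE 0.34, adjusted p = 3.4e-09), then fell to 1 week (log2 fold change -1.96, SE 0.32, adjusted p = 2.6e-05). At 1 week it was still above NSPs (log2 fold change 1.28, SE 0.32, adjusted p = 0.00087). These 4 calls were kept under every setting tried.

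The fourth peak of the pair, 29.9 kb upstream of Dlx1 within Metap1d, averaged 112 ± 49.5 in NSPs, where replicate 1 read 54.9 and the other libraries 145 and 136. It averaged 46.9 ± 6.48 at 72 h, where it fell (log2 fold change -1.12, SE 0.27, adjusted p = 0.00082). The call at 1 week (-0.82) was lost without NSPs replicate 2 or 3.

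Gsx2, a homeodomain factor of the lateral ganglionic eminence that maintains subpallial progenitors, had 6 peaks, all in its flanks. They summed to 583 ± 48.5 in NSPs, 398 ± 33 at 24 h, 422 ± 29.9 for 24 h TNF, 517 ± 30.0 at 72 h, 462 ± 27.6 for 72 h TNF and 497 ± 49.4 at 1 week. The mean at 24 h was the lowest, with its libraries below all NSP and untreated 72 h libraries and overlapping both TNF groups and 1 week, and 1 week overlapped NSPs.

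Its peaks divided into 4 that fell at 1 week and 2 that rose. The peak 3.7 kb upstream (chr5:75071659-75072159) read 66.6, 30.6 and 37.9 in NSPs, 63.8, 69.3 and 66.5 at 24 h, 125, 142 and 105 at 72 h and 174, 164, 147 and 184 at 1 week. The groups rose in the order of time, with NSPs replicate 1 among the 24 h libraries and no overlap from there on. It rose at 72 h (log2 fold change 1.51, SE 0.23, adjusted p = 1.7e-06) and 1 week (log2 fold change 1.94, SE 0.21, adjusted p = 3.3e-09), and its call at 24 h (0.63) was lost without NSPs replicate 2 or 3 or 24 h replicate 2 or 3. The peak 4.2 kb downstream, just past the gene, rose at 72 h (0.79, adjusted p = 0.030) and 1 week (0.69, adjusted p = 0.037).

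The peak 28.4 kb upstream (chr5:75046929-75047429) read 152, 157 and 167 in NSPs, 66, 62 and 76.4 at 24 h, 75.9, 119.6 and 111 at 72 h and 74.1, 80.3, 90.2 and 83.6 at 1 week. All later libraries lay below NSPs, and 24 h was the lowest mean. It fell at 24 h (log2 fold change -1.21, SE 0.20, adjusted p = 1.4e-05) and 1 week (log2 fold change -0.95, SE 0.19, adjusted p = 6.9e-05). The peak 12.2 kb upstream fell from 84.2 ± 5.09 in NSPs to 33.7 ± 5.78 at 24 h (log2 fold change -1.31, SE 0.33, adjusted p = 0.002) and stayed lower at 1 week (log2 fold change -1.36, SE 0.31, adjusted p = 0.00036). The peaks 4.9 kb upstream (24 h, -0.69, adjusted p = 0.0094) and 7.1 kb downstream (1 week, -0.83, adjusted p = 0.00028) fell as well.

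Six3, a homeodomain factor that represses Wnt signalling in the anterior neural plate, had 8 peaks, which changed in different directions. They summed to 452 ± 102 in NSPs, 596 ± 56.4 at 24 h, 647 ± 16.3 for 24 h TNF, 551 ± 13.1 at 72 h, 646 ± 8.16 for 72 h TNF and 514 ± 50.6 at 1 week. Both TNF groups lay above all NSP libraries, and the untreated groups overlapped NSPs, in which replicate 1 summed to 570 and the others to 385 and 401. The start peak, at 99 ± 34.4 in NSPs and 81.6 ± 19.6 at 24 h, passed no test.

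The peak 24.4 kb upstream of the Six3 start (chr17:85596202-85596702) read 11.1, 21.2 and 16.6 in NSPs, 27.3, 25.1 and 69 at 24 h, 29.6, 52.6 and 49.7 at 72 h and 113, 102, 81.4 and 94.4 at 1 week. NSPs were lowest and 1 week highest of the untreated groups, and 24 h replicate 3 stood above the other 24 h libraries. It rose at 72 h (log2 fold change 1.38, SE 0.30, adjusted p = 0.00029) and at 1 week (log2 fold change 2.55, SE 0.28, adjusted p = 5.1e-09), the latter also above 72 h (log2 fold change 1.17, SE 0.28, adjusted p = 0.0018). Its rise at 24 h (1.15, adjusted p = 0.0026) was lost without 24 h replicate 3.

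The highest Six3 peak, 8.2 kb downstream (chr17:85628780-85629280), read 94, 67.8 and 43.9 in NSPs, 178, 169.6 and 206 at 24 h, 158, 161 and 119 at 72 h and 121, 104, 176 and 76.1 at 1 week. It was highest at 24 h, and 1 week overlapped NSPs. It rose at 24 h (log2 fold change 1.47, SE 0.24, adjusted p = 9.3e-06), and remained called at 72 h (1.13) and 1 week (0.79). The peak 5.8 kb upstream of the start, within the annotated gene, went the other way, from 49.3 ± 11.6 in NSPs and 45 ± 9.22 at 24 h to 26.8 ± 4.58 at 72 h and 10.7 ± 4.39 at 1 week. It fell at 1 week against NSPs (log2 fold change -2.16, SE 0.33, adjusted p = 1.3e-06). Its call at 72 h (-0.84) was lost when any 1 of 5 libraries was left out, NSPs replicates 1 and 3 and each of the 72 h replicates.

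Of the remaining Six3 peaks, that 18 kb downstream rose at 24 h (log2 fold change 1.18, SE 0.31, adjusted p = 0.0026) although NSPs replicate 1 (114) overlapped the 24 h libraries, and fell from 72 h to 1 week (log2 fold change -1.20, SE 0.29, adjusted p = 0.0018). The peak 23.6 kb upstream rose at 72 h (0.80, adjusted p = 0.031) and 1 week (0.79, adjusted p = 0.020), with overlapping groups. The peak 25.1 kb downstream fell at 1 week (-0.96, adjusted p = 0.0080), and that 13.0 kb downstream passed no test.

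Otx1, an orthodenticle-type homeodomain factor, had the highest sum of the 8 loci. The reference gives it no strand, so distances are counted from its end of higher coordinate, where its main peak lies. The 6 peaks summed to 1908 ± 54.4 in NSPs, 1657 ± 115 at 24 h, 1554 ± 76.2 for 24 h TNF, 1277 ± 115 at 72 h, 1382 ± 86.7 for 72 h TNF and 1779 ± 114 at 1 week. The sum was lowest at 72 h and, at 1 week, overlapped NSPs.

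The main peak (chr11:22001474-22001974) held 64.1% of the locus and read 1231, 1217 and 1263 in NSPs, 1088, 1137 and 1019.8 at 24 h, 687, 702 and 855 at 72 h and 1169, 1108, 1316 and 1060.5 at 1 week. Only the 72 h libraries were below 900 among these groups, and 1 week overlapped NSPs. It fell at 72 h (log2 fold change -0.73, SE 0.11, adjusted p = 1.2e-06) and rose from there to 1 week (log2 fold change 0.64, SE 0.10, adjusted p = 1.7e-05), a rise that was 0.08 and not called under cyclic loess scaling.

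The peak 2.2 kb beyond it (chr11:22003606-22004106) read 73, 97 and 116 in NSPs, 129.8, 156 and 142 at 24 h, 153, 138 and 96.9 at 72 h and 189.6, 223, 229 and 198 at 1 week. It was highest at 1 week, where it rose (log2 fold change 1.15, SE 0.17, adjusted p = 9.0e-07). The call at 24 h (0.60) was lost without NSPs replicate 1, and that at 72 h (0.43) without NSPs replicate 1 or 2 or 72 h replicate 1 or 2. Peaks farther out differed in direction. On the side of lower coordinates, the peak 16.4 kb away fell from 80.4 ± 5.43 in NSPs to 21.8 ± 5.57 at 1 week (log2 fold change -1.87, SE 0.35, adjusted p = 2.8e-05). On the other side, 16 kb away within Ehbp1, a peak fell from 158 ± 39.9 to 45.6 ± 8.25 (log2 fold change -1.75, SE 0.22, adjusted p = 5.7e-08), while that 3.1 kb away fell at 24 h and 72 h (-0.54 and -0.56) and that 6.8 kb away rose at 1 week (0.37, adjusted p = 0.042).

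**Figure D3:**
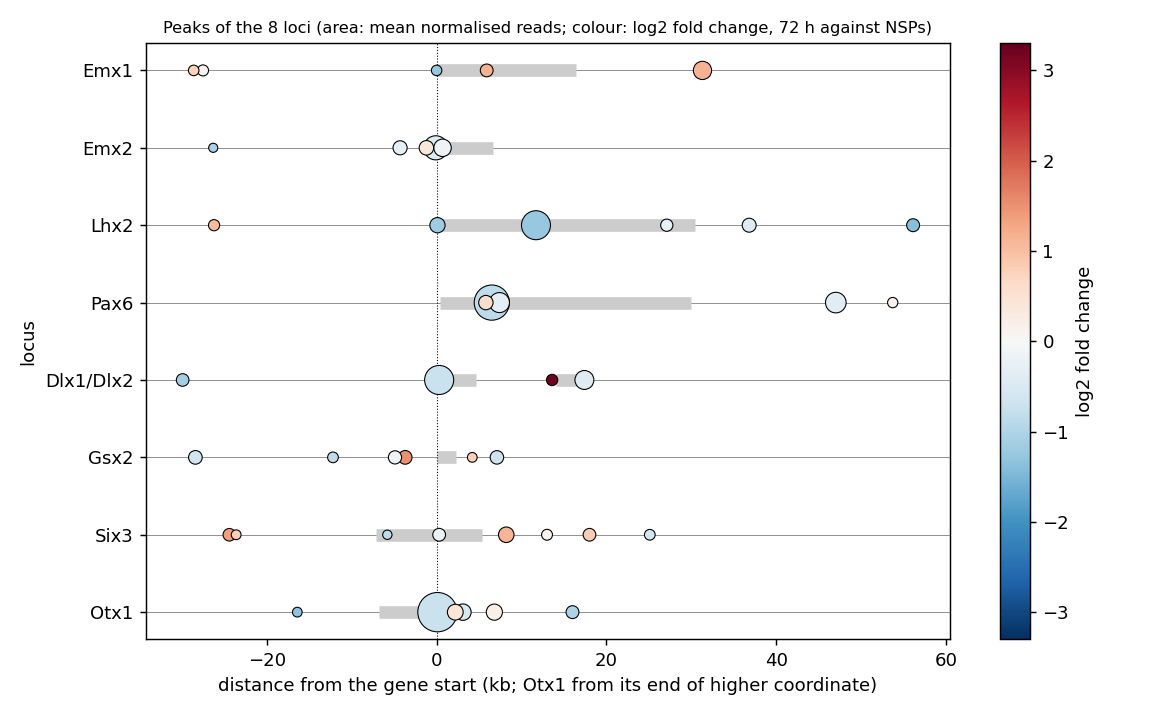
Map of the 45 peaks by distance from the gene start (horizontal axis, kb; for Otx1 from its end of higher coordinate) for the 8 loci (vertical axis), with gene bodies as grey bars, circle area growing with the mean normalised reads and colour giving the log2 fold change at 72 h against NSPs. Blue circles lie at the starts of Lhx2 and Dlx1 and at the Otx1 end of higher coordinate, and the darkest red circle, between Dlx1 and Dlx2, rose by 3.24.

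Untreated cells of 1 week were then compared with those of 72 h, both carrying the Luc tag. Of the 45 peaks, 7 had risen (22.5% of all peaks did) and 9 had fallen (16.2% of all), with a median log2 fold change of -0.01 against 0.02 over all peaks. Among the 9 start peaks, Dlx1 and Otx1 rose and Emx1 fell, where 54.0% of all gene-end peaks rose. Under total read scaling the median over all peaks was -0.31 and the split among members 3 higher and 17 lower. Of all 88919 peaks, 7965 were higher and 30033 lower under that scaling. Under cyclic loess scaling the split among members was 4 and 6, with no start peak called, and that among all peaks 11572 and 10295. Without NSPs replicate 1 and 1 week replicate 3, a choice made after seeing the data, 9 had risen and 11 had fallen.

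The second question was what TNF changed at these loci. At 24 h with TNF against 24 h without, 3 of the 45 peaks rose (7.06% of all peaks did) and 1 fell (3.53% of all). At 72 h, 2 rose (6.24% of all) and 3 fell (5.55% of all). None was a start peak at either time, and of all gene-end peaks 1.97% rose and 0.854% fell at 24 h and 3.29% and 1.45% at 72 h. The count of 3 rises at 24 h became 1 without 24 h replicate 1 or 2 or 24 h TNF replicate 1 or 2, and the 1 fall was lost without 24 h replicate 1 or 2 or 24 h TNF replicate 1 or 3. At 72 h the count of falls became 1 without 72 h TNF replicate 3.

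The strongest response lay 24.4 kb upstream of Six3, the peak that also gained accessibility with time. It read 126, 133 and 147 at 24 h with TNF and 175, 127 and 144 at 72 h with TNF, against 27.3, 25.1 and 69 and 29.6, 52.6 and 49.7 without. The TNF libraries lay above all untreated libraries, those of 1 week included. It rose with TNF at 24 h (log2 fold change 1.87, SE 0.30, adjusted p = 9.7e-05) and at 72 h (log2 fold change 1.77, SE 0.30, adjusted p = 0.00019), and both calls were kept under every setting tried.

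At Lhx2, 2 distal peaks responded in opposite directions at both times. The peak 56.1 kb downstream read 78.7, 77.6 and 57.1 at 24 h with TNF and 129, 127 and 114 at 72 h with TNF. At 72 h the treated libraries lay within the range of NSPs and above all untreated 72 h libraries. It rose with TNF at 24 h (log2 fold change 0.77, SE 0.23, adjusted p = 0.027) and 72 h (log2 fold change 1.30, SE 0.23, adjusted p = 0.00024). The peak 26.2 kb upstream read 33.6, 51.7 and 38.4 at 24 h with TNF and 45.6, 51.7 and 30.0 at 72 h with TNF. These libraries lay below the untreated ones of the same time. Its fall was called at 24 h (log2 fold change -0.92, SE 0.27, adjusted p = 0.026) and 72 h (log2 fold change -1.14, SE 0.27, adjusted p = 0.005). The rise at 24 h was lost without 24 h replicate 1 or 2 or 24 h TNF replicate 1 or 2, the fall at 24 h without 24 h replicate 1 or 2 or 24 h TNF replicate 1 or 3, and the fall at 72 h without 72 h TNF replicate 3 (-0.92).

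**Figure D4:**
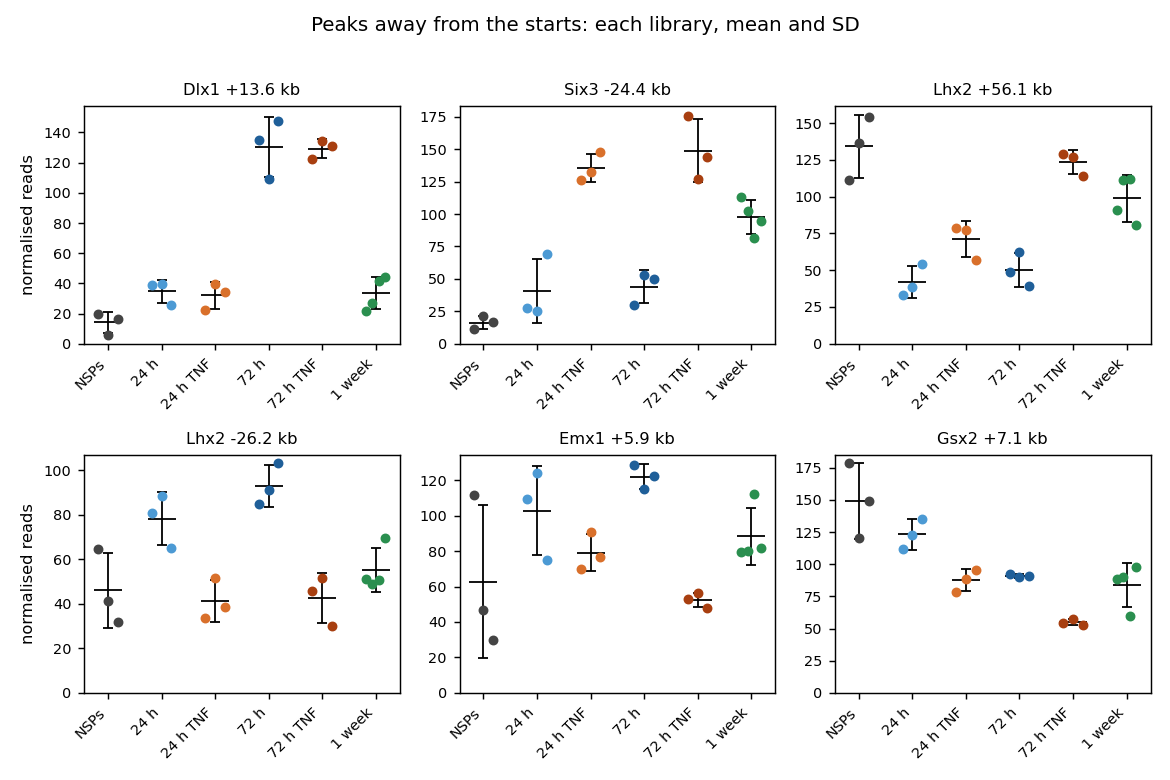
Normalised reads (vertical axis, from 0) of 6 peaks away from the starts in the 6 groups (horizontal axis), with a point per library, a bar at the mean and whiskers of 1 SD. At 72 h the TNF libraries lie apart from their untreated counterparts at the 5 peaks called for TNF, higher at Six3 and beyond the 3′ end of Lhx2 and lower at the other three, and overlap them between Dlx1 and Dlx2.

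The other TNF calls were at 1 time each. The Emx1 gene body peak read 52.7, 56.2 and 48 at 72 h with TNF against 129, 115 and 122 without, and fell (log2 fold change -1.21, SE 0.29, adjusted p = 0.006). The groups were far apart, and at 24 h the difference was -0.35 (adjusted p = 0.55). The peak 7.1 kb downstream of Gsx2 read 54.5, 57.6 and 52.8 with TNF and 92.6, 89.7 and 90.5 without at 72 h, and fell (log2 fold change -0.72, SE 0.20, adjusted p = 0.017), a call lost without 72 h replicate 1 or 72 h TNF replicate 3. The peak 28.4 kb upstream of Gsx2 read 97.3, 109.9 and 108 with TNF and 66, 62 and 76.4 without at 24 h, and rose (log2 fold change 0.62, SE 0.20, adjusted p = 0.046). Its call was lost when any 1 of 5 of those 6 libraries, all but 24 h replicate 3, was left out and under edgeR.

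Whether the TNF effect differed between 72 h and 24 h was tested directly as an interaction in limma-trend. None of the 45 peaks was called, against 0.0% of all peaks in the higher direction and 0.00112% in the lower, and edgeR and DESeq2 called none of the 45 either. At an unadjusted p under 0.05, 1 member peak was higher and 2 were lower. The calls at a single time are therefore not shown to differ between the times. Of the marker lists, the astrocyte sums (1560 to 1671 in untreated 72 h libraries) were 1165 to 1237 in the 72 h TNF libraries, and of the 6 genes Gfap (-1.10, adjusted p = 0.0011) and S100b (-0.54, adjusted p = 0.015) fell with TNF at 72 h. Of all gene-end peaks 1.45% fell in that comparison. The part of such differences in the TNF calls was not tested.

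A list of 27 further forebrain genes was read through its gene-end peaks, which 17 of them had. At 24 h 1 rose and 7 fell, at 72 h 2 rose and 11 fell, and at 1 week 2 rose and 9 fell. These are 5.88% and 41.2%, 11.8% and 64.7%, and 11.8% and 52.9% of the 17, against 6.27% and 39.3%, 9.62% and 53.7%, and 26.5% and 27.6% of all gene-end peaks. Zic2, a zinc finger factor of the dorsal midline, rose from 37.6 ± 3.74 in NSPs to 135.0 ± 31.4 at 24 h (1.80, SE 0.17, adjusted p = 5.5e-10), and again with TNF at 24 h (0.71) and 72 h (0.85). Gsx1, the paralogue of Gsx2, and Neurog2, a proneural factor of the pallium, each fell by 0.80 at 24 h on the log2 scale. With TNF 1 of the 17 rose at 24 h (5.88%), 2 rose at 72 h (11.8%) and none fell. Of all gene-end peaks 1.97% rose and 0.854% fell with TNF at 24 h, and 3.29% and 1.45% at 72 h. For contrast, 5 of 8 genes of caudal position (En1, En2, Gbx2, Irx3, Pax5) had such a peak, of which 1 rose and 2 fell at 24 h, 1 rose and 4 fell at 72 h, and 1 rose and 1 fell at 1 week.

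The start peaks did not share 1 pattern over the libraries. Across the 19 libraries, which include all groups, the Pearson correlation of log2 values over the 36 pairs of the 9 peaks ran from -0.18 (Emx1 with the second Emx2 peak, and Six3 with Otx1) to 0.80 (Dlx1 with Otx1). As a description over the same 19 libraries, the protein-coding gene whose gene-end peak was most like the start peak nearest each start (for Lhx2 the first) among 12971 genes was Adrm1 for Otx1 (0.978), Pdzd8 for Dlx1 (0.947), Sv2c for Emx1 (0.935), Zmiz1 for Emx2 (0.928), Kcnn2 for Lhx2 (0.898), Mfhas1 for Dlx2 (0.834) and Ccdc82 for Six3 (0.821).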

How the data were processed

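Open chromatin was profiled by ATAC-seq in 19 libraries, grouped by their sample titles. By the study's methods, bad-quality reads were removed in Trim Galore, Bowtie2 aligned the reads, SAMtools discarded mitochondrial ones, MACS2 called peaks, blacklisted regions were dropped and DiffBind compared accessibility. The submitters' processing notes name these tools up to MACS2, FastQC and the build mm10. Versions, duplicate handling, any transposase shift and how the table was normalised are not given in the sources used here. A missing shift would displace cuts by a few bases, a small distance against peaks whose ends lie 500 bases apart. The authors deposited 1 table with a signal per peak and library, normalised to the library. In each library 100% of values were whole multiples of the value of 1 read (tolerance 0.01 of a read), so the reads behind each value were recovered. No value was under 1 read, so 0 reads cannot be told from 1.

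The values were not raw counts, so log2(value + 1) was tested with limma-trend (limma 3.58.1 in R 4.3.3), with a mean for each of the 6 groups and no covariate. Peaks were kept by filterByExpr of edgeR 4.0.16 with a minimum count of 10 on the recovered reads, which kept 88919 and left out 1235. P-values are two-sided and adjusted by Benjamini-Hochberg over all peaks kept, with calls at 0.05. The scale understates changes of low peaks. The script was tested on simulated data. Alternatives were total read and cyclic loess scaling, a pseudocount of 5, no filter, a mean of at least 50 reads, a replicate block, fits of only the groups compared, leaving out each library, and edgeR and DESeq2 1.42.0 on the recovered reads.

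Gene bodies, listed starts and upstream windows came from RefSeq (GRCm38.p6), without exons, so exons and introns were not told apart. Peak coordinates are those of the deposited table. A start peak has its centre within 1 kb of a listed start or, for Otx1, which has none, of an end of the gene. At each locus the named peaks were the start peak, the highest peak and the called peaks with the largest and smallest change at 24 h and 1 week against NSPs. For TNF they were up to 5 called peaks per direction and time. Other peaks are given to account for every member. Members and lists were chosen with earlier results of these data known. Same-numbered libraries did not deviate together (correlations from -0.031 to 0.106), and no label says that they share a culture, so numbers were not treated as pairs. Deposited comparisons of the authors were not used here. A gene of the further forebrain list enters its counts and is not reported here by name.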

Additional observations from a re-analysis of the deposited data

Results flagged for a closer look

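In the 1 week group of 4 libraries, 1 library lay far from the other 3 at 4 peaks and in 1 sum, measured as its gap to the nearest library divided by the range of the group. Of 36 such groups examined 5 were flagged, and chance flags about 1 in 20. At the Emx1 peak 5.9 kb downstream of the start the ratio was 0.935, with replicate 3 at 112 and the others from 79.4 to 81.5. At the Emx1 peak 31.3 kb downstream it was 0.935 as well, with replicate 2 at 258 and the others from 211 to 214. At the Lhx2 peak 26.2 kb upstream it was 0.901, with replicate 4 at 69.7 and the others from 49.1 to 51.1. At the Pax6 peak 53.7 kb downstream it was 0.859, with replicate 2 at 7.01 and the others from 25.6 to 28.6. For the summed peaks of Dlx1 and Dlx2 it was 0.906, with replicate 3 at 867 and the others from 916 to 921. The outlying library was replicate 2, 3 or 4, depending on the peak. Replicate 3 was the shallowest library of the series.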

How the results depend on the processing

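Counts of called member peaks at 24 h against NSPs were 10 higher and 14 lower. They became 5 higher when only these groups were fitted and 9 lower under total read scaling. At 72 h the 19 lower became 10 under total read scaling. At 1 week against 72 h the 7 higher became 3 under total read and 4 under cyclic loess scaling, and the 9 lower became 17 under total read scaling. Calls over all peaks moved in the same directions under these scalings, as given above. For TNF at 72 h, fitting only the groups compared gave 4 higher and 5 lower. Leaving out each library in turn gave 6 to 9 higher and 10 to 13 lower at 24 h, 7 to 12 and 15 to 16 at 72 h, 6 to 11 and 16 to 19 at 1 week, and 7 to 8 and 8 to 10 at 1 week against 72 h. It gave 1 to 3 higher and 0 to 1 lower for TNF at 24 h, 2 to 3 and 1 to 4 for TNF at 72 h, and 0 throughout for the difference between the TNF effects. The Pax6 peak 6.5 kb downstream was 0.41 higher at 1 week than at 72 h and -0.093 with cyclic loess scaling. Of 88 single results on named peaks, 55 kept their direction and side of the threshold under every setting tried. The cause of these shifts was not tested.

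With the replicate number as a block, which the labels do not show to be a pairing, the counts were 10 higher and 14 lower at 24 h, 12 and 19 at 72 h by the number in the titles and 13 and 18 by that in the library names, 10 and 18 at 1 week, and 7 and 10 at 1 week against 72 h. TNF counts were 3 and 1 at 24 h and 2 and 3 at 72 h. Depth limits the lowest peaks, of which 5 held under 10 reads in some library.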
